A study of Mus musculus with 6 samples.

Results

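The genes described here code for the matrix metalloproteases (Mmp), the ADAMTS proteases (Adamts), the ADAMTS-like proteins (Adamtsl) and the tissue inhibitors of metalloproteases (Timp) in mouse liver. They were chosen by symbol alone, as every measured gene named Mmp, Adamts, Adamtsl or Timp followed by a number. This gave 49 of the 22180 genes measured, of which 22 were Mmp genes, 18 Adamts genes, 5 Adamtsl genes and 4 Timp genes.

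Liver RNA was taken from 3 MUTYH-null (Mutyh -/-) mice, animals 3003, 3007 and 3008, and from 3 wild-type (Mutyh +/+) mice, animals 1025, 1027 and 1001, with 1 array per mouse. All were males backcrossed to C57BL/6 for at least 10 generations and fed a high-fat high-carbohydrate (HFHC) diet with high iron for 9 months from 8 weeks of age, as a model of non-alcoholic steatohepatitis (NASH). The MUTYH-null mice had developed liver tumors, labelled hepatocellular carcinoma (HCC), and the study's text describes their tissue as non-tumorous. None of the wild-type mice had liver tumors, so that genotype and the presence of a tumor cannot be told apart in these groups.

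MUTYH is a DNA glycosylase that takes out adenine placed opposite oxidized guanine. Its own probe set differed by 0.05 log2 (SE 0.10), MUTYH-null minus wild-type, which does not check the genotype, as it is unknown here whether the probes lie inside the disrupted part. Array medians lay between 4.51 and 4.55 log2. Hepatocyte markers, such as the albumin gene, were bright in every mouse, with list means of 11.24 to 11.39 in MUTYH-null and 11.22 to 11.41 in wild-type livers. All values below are deposited log2 values, in which 1 unit is a doubling of signal. Differences are MUTYH-null minus wild-type, with the standard error (SE) of a limma fit over all genes and n = 3 mice per group. Signals of different probe sets do not rank the amounts of their RNAs.

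MMPs and ADAMTS proteases are zinc enzymes that cut collagens, proteoglycans, elastin and other proteins outside the cell. Most are made as inactive proenzymes, and TIMPs block them by binding to the active site. ADAMTS-like proteins resemble ADAMTS enzymes but lack the protease domain. In injured liver, stellate cells, macrophages and neutrophils are known sources of these enzymes and inhibitors, and the balance between them bears on how scar matrix is laid down and removed.

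Of the Mmp genes, 10 lie next to each other on chromosome 9, with 0 other coding genes between them. Their promoters are shown because the only Mmp gene that rose in MUTYH-null livers at an unadjusted p under 0.05, Mmp7, and 1 of the 2 that fell, Mmp8, both belong to this row of neighbors. Each stretch runs from 100 bases before the start of transcription to 20 bases from it on, 5′ to 3′ on the strand of the gene, from RefSeq on build GRCm38.p6. Capitals mark TGANTCA, a sequence bound by AP-1 factors and its own reverse complement, and TATAAA on either strand.
Mmp13, chr9:7272414-7272533, plus strand: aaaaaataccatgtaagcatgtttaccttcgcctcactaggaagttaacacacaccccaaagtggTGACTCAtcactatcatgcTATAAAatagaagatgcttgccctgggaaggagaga
Mmp12, chr9:7347274-7347393, plus strand: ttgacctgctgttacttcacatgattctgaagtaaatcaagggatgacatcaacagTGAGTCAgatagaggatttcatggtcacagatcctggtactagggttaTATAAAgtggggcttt
Mmp1b, chr9:7388007-7388126, minus strand: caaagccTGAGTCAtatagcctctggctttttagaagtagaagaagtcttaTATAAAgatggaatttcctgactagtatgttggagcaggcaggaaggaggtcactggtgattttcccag
Mmp3, chr9:7445722-7445841, plus strand: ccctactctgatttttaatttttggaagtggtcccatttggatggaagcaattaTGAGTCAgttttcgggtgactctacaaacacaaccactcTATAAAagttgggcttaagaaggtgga
Mmp1a, chr9:7464041-7464160, plus strand: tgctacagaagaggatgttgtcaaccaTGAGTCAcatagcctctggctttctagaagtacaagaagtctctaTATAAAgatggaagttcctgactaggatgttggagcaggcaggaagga
Mmp10, chr9:7502242-7502361, plus strand: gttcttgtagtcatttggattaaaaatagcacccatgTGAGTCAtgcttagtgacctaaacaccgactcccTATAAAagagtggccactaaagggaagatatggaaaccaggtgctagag
Mmp8, chr9:7558329-7558448, plus strand: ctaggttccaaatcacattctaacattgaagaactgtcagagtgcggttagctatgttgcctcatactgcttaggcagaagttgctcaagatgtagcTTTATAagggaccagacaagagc
Mmp27, chr9:7571296-7571415, plus strand: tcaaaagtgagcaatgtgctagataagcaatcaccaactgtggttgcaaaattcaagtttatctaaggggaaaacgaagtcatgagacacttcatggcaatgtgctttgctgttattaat
Mmp20, chr9:7628131-7628250, plus strand: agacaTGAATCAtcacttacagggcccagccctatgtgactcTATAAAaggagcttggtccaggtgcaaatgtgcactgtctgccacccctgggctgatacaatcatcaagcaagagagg
Mmp7, chr9:7691990-7692109, plus strand: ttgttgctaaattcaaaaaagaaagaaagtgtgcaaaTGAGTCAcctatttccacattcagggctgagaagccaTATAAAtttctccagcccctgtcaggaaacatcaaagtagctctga

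TGANTCA was found in 8 of the 10 stretches, the exceptions being Mmp8 and Mmp27. TATAAA was found in 9 of 10, with Mmp27 the exception and with the match of Mmp8 on the other strand. No match of one motif overlapped a match of the other. RefSeq windows of 300 bases, 250 before the start and 50 after it, were matched to 34 of the 49 genes. In these windows TGANTCA occurred in 8 of 34 genes, all of them in the chromosome 9 row, and in 8.97% of the 27025 genes with a window. TATAAA occurred in 12 of 34 genes and in 15.7% of all genes. Mmp12 and Mmp7 have more than 1 window, and the one holding matches was printed. A match describes the letters in a window and is neither a binding site nor a cause.

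The comparison asked which of these protease and inhibitor genes differed between livers of MUTYH-null mice that developed tumors and livers of wild-type mice that did not. At an unadjusted limma p under 0.05, the level used here for "rose" and "fell", Mmp7, Adamts5, Adamts6 and Timp4 rose in MUTYH-null livers while Mmp8 and Mmp17 fell. The sizes were modest, between 0.27 and 0.55 log2 in either direction. After Benjamini-Hochberg adjustment over all genes by limma, 0 of the 49 genes and 0 of 22180 genes passed, with a smallest adjusted p of 0.963, whereas 1129 genes were at an unadjusted p under 0.05.

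Of the 49 genes, 4 rose (8.16%, against 2.29% of all genes) and 2 fell (4.08%, against 2.80% of all genes), so that 12.2% were called in either direction, against 5.09% of all genes. In 8 of the 49 genes (16.3%) all mice of one genotype lay on the same side of all mice of the other, against 9.53% of all genes. MUTYH-null mice lay above in 5 of these (4.23% of all genes) and below in 3 (5.29% of all genes). The difference was positive in 31 genes (63.3%, against 47.5% of all genes). The median was 0.06 log2 over the 49 genes and -0.01 log2 over all genes. In 30 of the 49 genes the difference was smaller than its SE, as it was in 14489 of all 22180 genes. These are counts in 6 mice, and no test was made over the genes as a group.

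**Figure D1:**
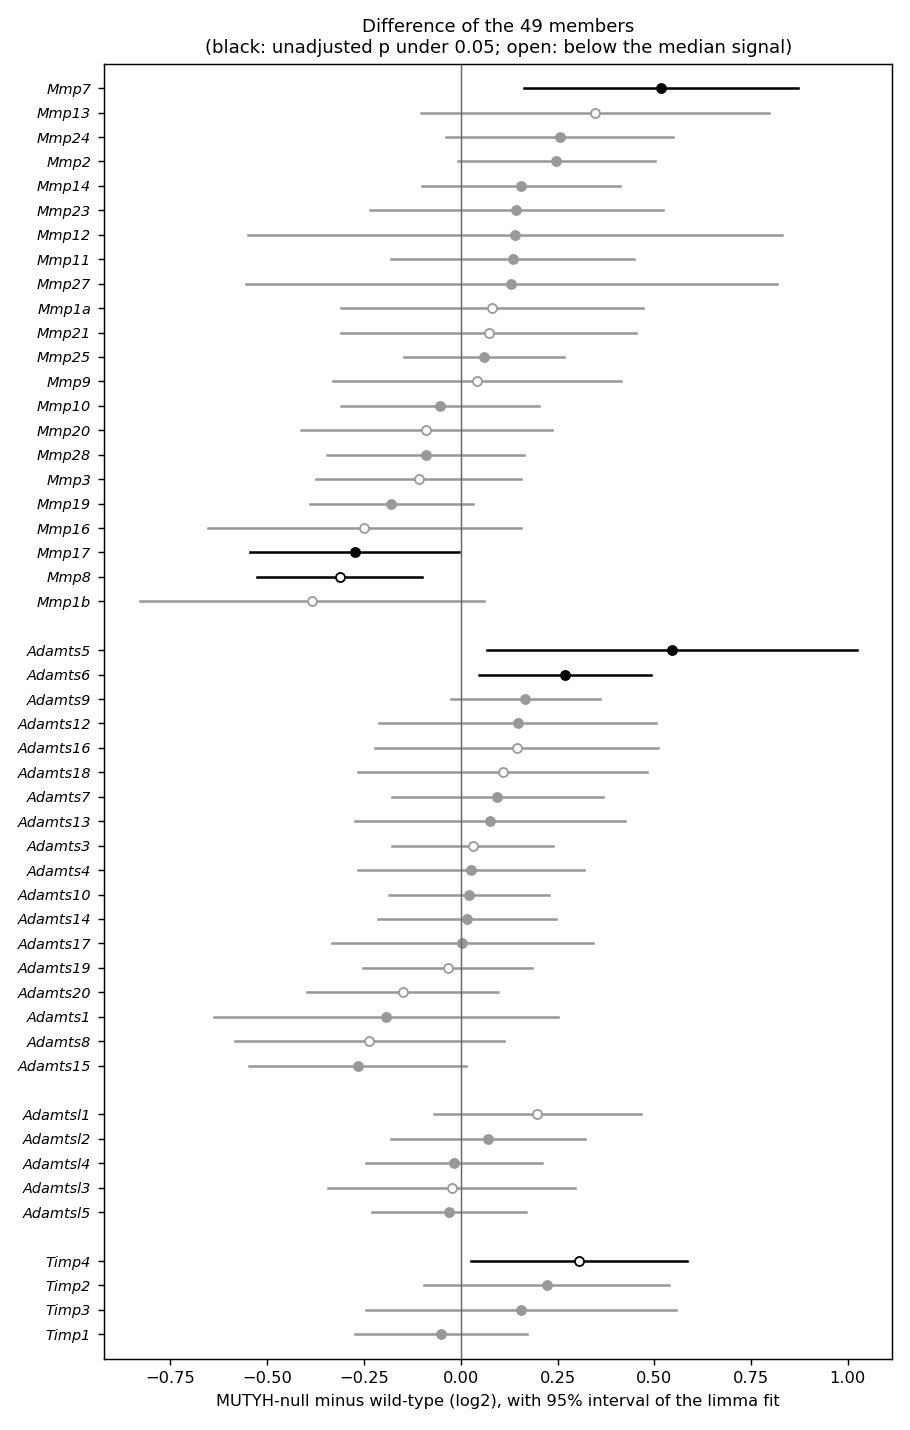
Difference between MUTYH-null and wild-type livers (horizontal axis, log2) for each of the 49 genes (vertical axis), grouped by family, with bars for the 95% interval of the limma fit. Black marks the 6 genes at an unadjusted p under 0.05, open symbols mark genes below the median signal of the arrays, and most intervals cross 0.

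Signal itself limited what could be read. The median signal over the probe sets, as means of 6 arrays, was 4.51, and in 31 of the 49 genes (63.3%) at least 1 genotype averaged more. In the other 18 genes, among them every interstitial collagenase, Mmp9 and Timp4, both genotypes lay below it. These genes are called dim here, since background can make up much of such a value. In bulk liver RNA, fewer cells of a type and less RNA per cell cannot be told apart.

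The collagenases cut fibrillar collagen, and all 4 of them were dim. Mmp8, the collagenase known from neutrophil granules, had values of 3.21, 3.26 and 3.35 in MUTYH-null mice, against 3.61, 3.66 and 3.49 in wild-type mice. Every MUTYH-null value lay below every wild-type value, and the nearest values were 0.14 log2 apart. The means were 3.27 ± 0.07 and 3.59 ± 0.09 (SD) in MUTYH-null and wild-type livers, a difference of -0.31 log2 (SE 0.09, 95% interval -0.53 to -0.10, limma p = 0.00931, adjusted p = 0.963, exact permutation p = 0.1). An exact two-sided p of 0.1 is the smallest that 3 against 3 mice allow. The fall stayed past the unadjusted threshold in 12 of 12 alternative settings, with differences between -0.36 and -0.28 log2. Genes given with 12 settings rather than 13, Mmp8 among them, were removed by the setting that keeps only genes with a mean above the median signal.

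Neutrophil markers were measured beside it. None of 12 was called by limma, the difference was negative in 7 of 12, and only Csf3r and Lcn2 were above the median signal. The mean level of the list was 4.25 to 4.29 in MUTYH-null mice and 4.26 to 4.38 in wild-type mice. The granule and surface genes S100a8 and Ly6g were dim as well. The part of neutrophils in the Mmp8 value was not tested.

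Among the other collagenases, Mmp13, the main collagenase of rodents, had values of 4.33, 4.07 and 3.90 in MUTYH-null mice and 4.16, 3.40 and 3.70 in wild-type mice, a difference of 0.35 log2 (SE 0.20, limma p = 0.114, exact permutation p = 0.3). The groups overlapped. Mmp1b was at 2.02, 1.32 and 1.36 in MUTYH-null mice and at 2.14, 1.92 and 1.80 in wild-type mice, a difference of -0.38 log2 (SE 0.19, limma p = 0.0820, exact permutation p = 0.3) that did not pass. Mmp1a and Mmp1b are paralogs, and whether their probes separate them was not checked. With 1 of 4 collagenases fallen (against 2.80% of all genes) and none risen, their median difference was -0.12 log2.

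The gelatinases cut denatured collagen and basement membrane collagen. Mmp2, which stellate cells make in injured liver, had values of 6.32, 6.48 and 6.43 in MUTYH-null mice and 6.22, 6.30 and 5.97 in wild-type mice. The groups did not overlap, but by a gap of only 0.03 log2. Its difference of 0.25 log2 (SE 0.11, 95% interval -0.01 to 0.50, limma p = 0.0560, exact permutation p = 0.1) missed the threshold. It passed in 3 of 13 alternative settings, namely with genes of a mean below the median signal left out, with a robust variance trend and without wild-type mouse 1027 (0.31 log2), while without wild-type mouse 1001 it was 0.15 log2. Mmp9, the gelatinase of leukocytes, was dim and differed by 0.04 log2 (SE 0.16).

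Mmp14, the membrane-type MMP that activates proMMP2 together with TIMP2, was measured at 7.99, 8.05 and 7.79 in MUTYH-null mice and at 7.81, 7.64 and 7.91 in wild-type mice. The groups overlapped, with a difference of 0.16 log2 (SE 0.11, 95% interval -0.10 to 0.41, exact permutation p = 0.3). Mmp2, Mmp14 and Timp2 thus all had positive differences, and none of them passed the test.

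Mmp7, or matrilysin, is a small MMP of epithelia that lacks the hemopexin domain of most others. Its values were 6.13, 6.09 and 5.75 in MUTYH-null mice, against 5.65, 5.57 and 5.19 in wild-type mice. The groups did not overlap, and the lowest MUTYH-null value (mouse 3008) lay 0.10 log2 above the highest wild-type value (mouse 1025). Means were 5.99 ± 0.21 in MUTYH-null and 5.47 ± 0.25 in wild-type livers (SD). The difference of 0.52 log2 (SE 0.15, 95% interval 0.16 to 0.87, limma p = 0.00971, adjusted p = 0.963, exact permutation p = 0.1) corresponds to 1.43-fold. Mmp7 passed the unadjusted threshold in 13 of 13 alternative settings, with differences between 0.31 and 0.64 log2. The lowest of these came from averaging it with a second, far dimmer Mmp7 probe set, which differed by 0.10 log2.

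In adult liver Mmp7 is known from bile duct epithelium, so cholangiocyte markers were set beside it. Of the 7 measured, 1 rose (14.3%, against 2.29% of all genes) and none fell, and 6 had positive differences (47.5% of all genes). The one that rose was Muc1, by 0.57 log2, which ranged from 0.35 (without mouse 1001) to 0.76 log2 (without mouse 1025) when 1 mouse was left out and was no longer called without mouse 3003. Of the markers not called, Krt19, Epcam, Sox9 and Cldn4 differed by -0.02, 0.06, 0.04 and 0.09 log2, each by less than its SE. Krt7 and Cldn7 differed by 0.24 and 0.17 log2, each by more than its SE. The mean level of the list was 4.87 to 4.92 in MUTYH-null mice and 4.62 to 4.79 in wild-type mice, without overlap. Cldn7 was dim, and Krt19, Epcam and Cldn4 averaged 4.51, 4.49 and 4.49 over the 6 arrays, close to the median signal of 4.51. The part of these cells in the Mmp7 value was not tested.

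**Figure D2:**
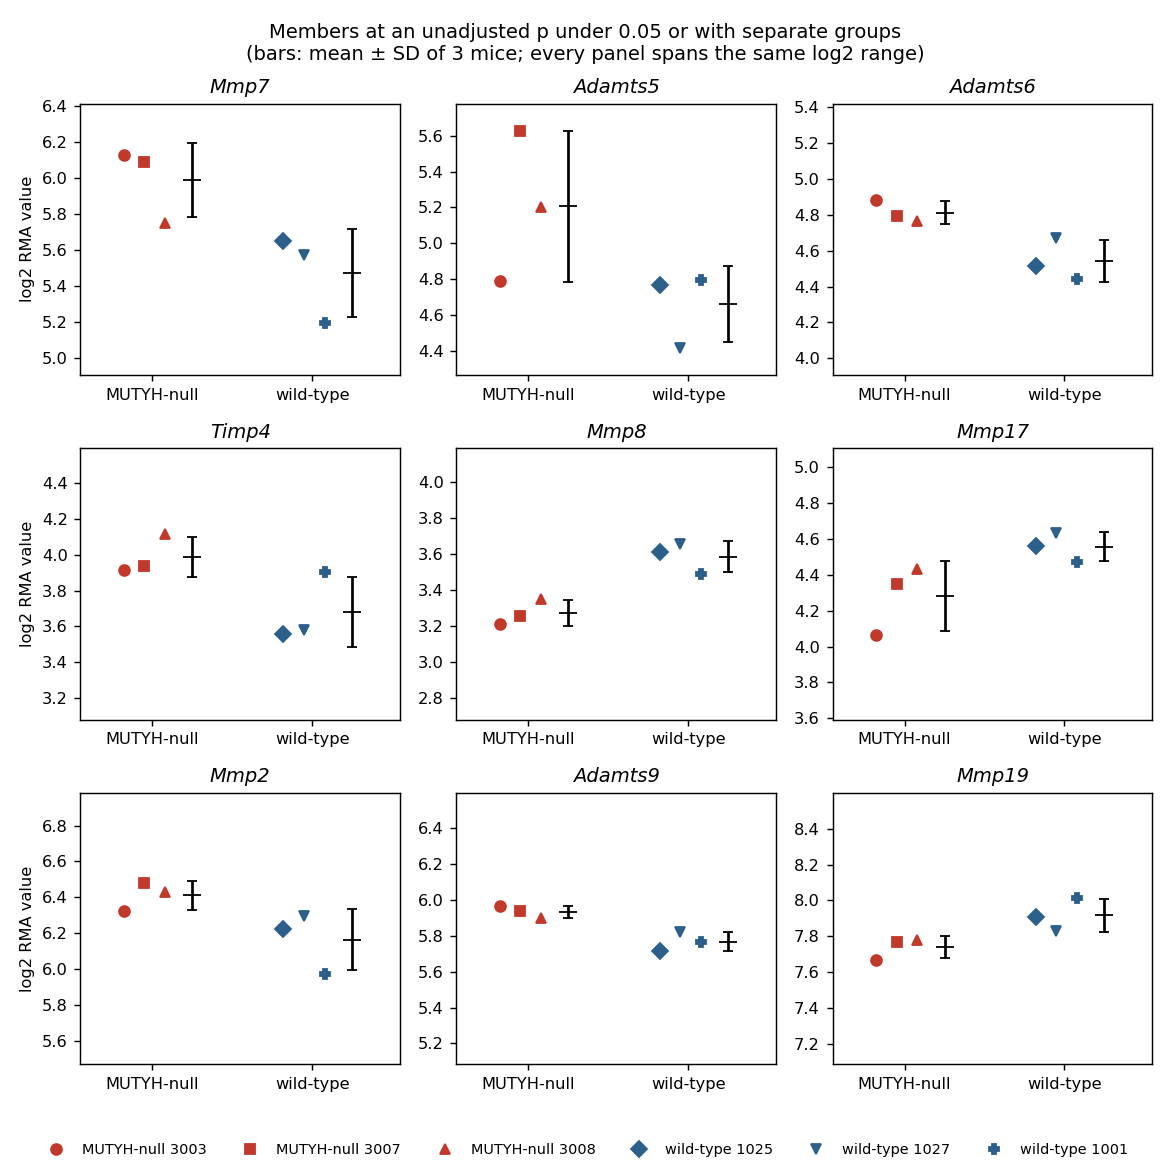
Log2 value (vertical axis) in each mouse for the 9 genes that passed the unadjusted threshold or whose groups did not overlap, MUTYH-null on the left and wild-type on the right of each panel, with a symbol per mouse and bars for mean ± SD of 3 mice. Each panel spans the same log2 range, and of these genes Adamts5 alone has overlapping groups.

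Along the chromosome 9 row the differences did not run in one direction. In order from Mmp13 the row holds Mmp12, Mmp1b, Mmp3, Mmp1a, Mmp10, Mmp8, Mmp27, Mmp20 and Mmp7. Positive differences were found in 5 of these 10 genes (47.5% of all genes) and negative ones in 5, with a median of 0.01 log2. Only Mmp7 rose (against 2.29% of all genes) and only Mmp8 fell (against 2.80%) at the unadjusted threshold. Mmp8 and Mmp27, the genes without TGANTCA in the stretch printed, differed by -0.31 and 0.13 log2.

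**Figure D3:**
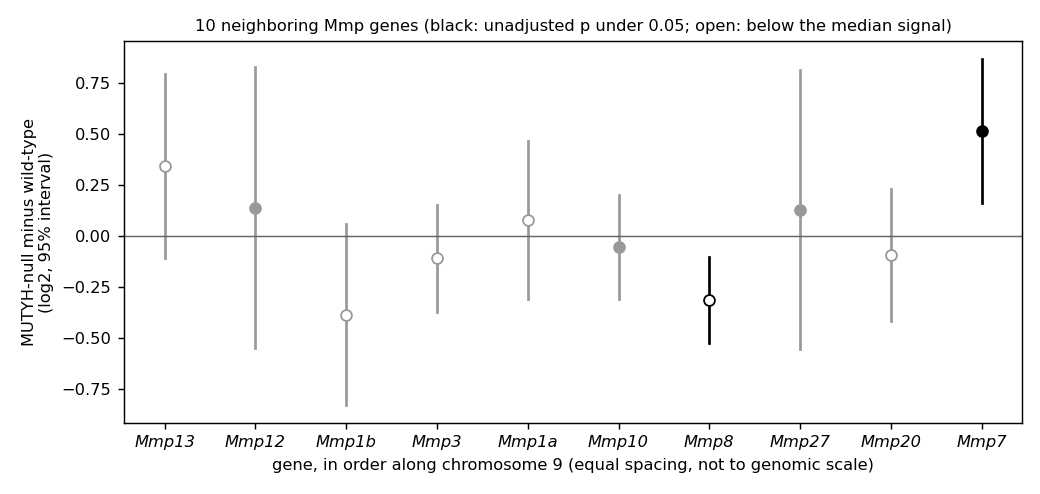
Difference between MUTYH-null and wild-type livers (vertical axis, log2, with 95% interval) for the 10 neighboring Mmp genes, in their order on chromosome 9 at equal spacing (horizontal axis). Mmp8 and Mmp7, in black, passed the unadjusted threshold in opposite directions, and the wide intervals of Mmp12 and Mmp27 come with the spread between mice.

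Mmp12 and Mmp27 varied most within the groups. Mmp12, the macrophage elastase, was measured at 7.07, 6.20 and 6.02 in MUTYH-null mice and at 6.78, 6.11 and 5.97 in wild-type mice. In each genotype 1 mouse stood above the others, 3003 among the MUTYH-null and 1025 among the wild-type mice. The difference of 0.14 log2 (SE 0.30, 95% interval -0.55 to 0.83) was well inside this spread and turned negative without mouse 3003, at -0.18. Mmp27 was at 5.49, 5.18 and 5.04 in MUTYH-null mice and at 5.28, 5.66 and 4.37 in wild-type mice, a difference of 0.13 log2 (SE 0.30) that turned to -0.24 without wild-type mouse 1001.

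Macrophage markers also differed between mice within a genotype, with list means of 6.84, 6.83 and 6.59 in MUTYH-null mice and 7.03, 6.68 and 6.42 in wild-type mice. Mouse 1025 was the highest in 7 of 14 of these markers. Of the 14, 2 rose (14.3%, against 2.29% of all genes) and 2 fell (14.3%, against 2.80%), with 8 positive and 6 negative differences. Gpnmb and Itgax, known from lipid-laden macrophages, rose by 0.42 and 0.38 log2, and Marco and Timd4, known from resident Kupffer cells, fell by 0.38 and 0.64 log2. Of the markers not called, Vsig4, Cd5l, Adgre1 and Clec4f differed by 0.34, -0.05, -0.05 and -0.21 log2 and Cd9 by 0.01 log2, each by less than its SE. Trem2, by 0.24 log2 (SE 0.12), and Lyz2, by 0.22 log2 (SE 0.18), were not called either but differed by more than their SE. Gpnmb and Itgax each lost the call without mouse 3003, 3007, 1027 or 1001, at 0.28 and 0.25 log2 without mouse 1001, and Timd4 lost it without mouse 3007, at -0.51 log2. Their part in the Mmp12 values was not tested.

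Of the stromelysins Mmp3, Mmp10 and Mmp11, none passed and each differed by less than its SE. Mmp11 had values of 5.06, 5.02 and 5.43 in MUTYH-null mice and 5.16, 4.88 and 5.07 in wild-type mice, a difference of 0.13 log2 (SE 0.14). Its second probe set ran the other way, at -0.34 log2, so no direction is given for Mmp11.

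Among the 5 membrane-type MMPs, Mmp17, which is held in the membrane by a lipid anchor, fell. It was at 4.06, 4.35 and 4.43 in MUTYH-null mice, against 4.56, 4.63 and 4.47 in wild-type mice. The MUTYH-null mean of 4.28 lay below the median signal of 4.51, and the wild-type mean of 4.56 only just above it. The groups of Mmp17 did not overlap, by 0.04 log2 between mouse 3008 and mouse 1001. The difference was -0.27 log2 (SE 0.12, limma p = 0.0476, adjusted p = 0.963, exact permutation p = 0.1), and it passed in 5 of 12 alternative settings. Of the fits that left out 1 mouse, only the one without mouse 3008 kept the call, and without mouse 3003 the difference was -0.16 log2. Mmp24 ran the other way, with 5.44, 5.20 and 5.48 in MUTYH-null mice and 5.26, 4.90 and 5.19 in wild-type mice, a difference of 0.26 log2 (SE 0.13, limma p = 0.0803, exact permutation p = 0.2) that did not pass.

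Mmp19 is a secreted MMP found in many tissues. It had values of 7.67, 7.77 and 7.78 in MUTYH-null mice and 7.91, 7.83 and 8.01 in wild-type mice, again without overlap. The difference of -0.18 log2 (SE 0.09, 95% interval -0.39 to 0.03, limma p = 0.0863, exact permutation p = 0.1) missed the threshold, and it passed with a robust variance trend.

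Within the ADAMTS family, 7 genes code for proteases that cut aggrecan, versican or related proteoglycans. Adamts5, the main aggrecan-cutting enzyme of mouse cartilage, had the largest positive difference of the 49 genes. Its values were 4.79, 5.63 and 5.20 in MUTYH-null mice, against 4.77, 4.42 and 4.79 in wild-type mice. Mice 3007 and 3008 were above all wild-type mice, while mouse 3003 was level with wild-type mouse 1001. Means were 5.21 ± 0.42 in MUTYH-null and 4.66 ± 0.21 in wild-type livers (SD), a difference of 0.55 log2 (SE 0.21, 95% interval 0.07 to 1.02, limma p = 0.0299, adjusted p = 0.963, exact permutation p = 0.2). Without mouse 3007 the difference was 0.34 log2 and no longer passed, and it also failed without mouse 3008 or without wild-type mouse 1027.

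The proteoglycan-cutting enzymes did not move together. Of the 7, only Adamts5 was called (against 5.09% of all genes). Of their differences, 3 were positive (47.5% of all genes) and 4 negative, and the median was -0.15 log2. Adamts1, which cuts versican and lies next to Adamts5 on chromosome 16, was at 6.63, 6.70 and 6.10 in MUTYH-null mice and at 6.78, 6.35 and 6.88 in wild-type mice. Its groups overlapped, with a difference of -0.19 log2 (SE 0.19), so these neighboring genes had differences of opposite sign. Adamts9, another versican-cutting enzyme, was measured at 5.96, 5.94 and 5.90 in MUTYH-null mice and at 5.71, 5.82 and 5.77 in wild-type mice. Its groups did not overlap, and the difference of 0.17 log2 (SE 0.08, limma p = 0.0815, exact permutation p = 0.1) did not pass in any of 13 alternative settings. Adamts15 and Adamts8, which are neighbors on chromosome 9 apart from the Mmp row, differed by -0.27 log2 (SE 0.12, exact permutation p = 0.2) and -0.24 log2 (SE 0.15, exact permutation p = 0.3). Adamts8 was dim, and its second probe set differed by only -0.04 log2. With its probe sets averaged, the Adamts8 difference was -0.14 log2.

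Adamts6 and Adamts10 are close relatives tied to fibrillin microfibrils. Adamts6 had values of 4.88, 4.79 and 4.76 in MUTYH-null mice, against 4.51, 4.67 and 4.44 in wild-type mice. The groups were separate by 0.09 log2, with means of 4.81 ± 0.06 in MUTYH-null and 4.54 ± 0.12 in wild-type livers (SD). The wild-type mean lay only just above the median signal of 4.51. Adamts6 rose by 0.27 log2 (SE 0.10, limma p = 0.0230, adjusted p = 0.963, exact permutation p = 0.1). The call was lost without mouse 3003, mouse 1025 or mouse 1001. Adamts10 was flat at 5.87, 5.97 and 6.04 in MUTYH-null mice and 5.97, 5.88 and 5.97 in wild-type mice, a difference of 0.02 log2 (95% interval -0.18 to 0.23).

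The remaining ADAMTS groups held no calls. The procollagen N-proteinase genes Adamts3 and Adamts14, whose products trim fibrillar procollagens, differed by 0.03 and 0.02 log2. Adamts7 and Adamts12, whose products cut cartilage oligomeric matrix protein, differed by 0.09 and 0.15 log2. Adamts13, the von Willebrand factor protease known from hepatic stellate cells, differed by 0.08 log2 (SE 0.15). Each of these was smaller than its SE.

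None of the 5 Adamtsl genes passed, with differences from -0.03 to 0.20 log2. Adamtsl2, which is mutated in human geleophysic dysplasia and binds fibrillin and latent TGF-β binding protein, was at 6.72, 6.89 and 6.71 in MUTYH-null mice and at 6.53, 6.77 and 6.81 in wild-type mice, with a difference of 0.07 log2 (SE 0.11).

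On the inhibitor side, 1 of 4 Timp genes rose (against 2.29% of all genes), and the median difference was 0.19 log2. Timp4 had values of 3.91, 3.93 and 4.11 in MUTYH-null mice, against 3.56, 3.58 and 3.91 in wild-type mice. The groups touched, since mouse 3003 lay only 0.0065 log2 above wild-type mouse 1001. The rise of 0.31 log2 (SE 0.12, limma p = 0.0355, adjusted p = 0.963, exact permutation p = 0.1) came from a dim probe set and passed in 6 of 12 alternative settings. It was lost without mouse 3007, 3008, 1025 or 1027, with differences of 0.24 to 0.33 log2 in these fits.

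Timp1, the inhibitor best known as induced in liver fibrosis, was at 4.62, 4.73 and 4.49 in MUTYH-null mice and at 4.64, 4.62 and 4.73 in wild-type mice. Its difference of -0.05 log2 had a 95% interval of -0.27 to 0.17. The groups thus overlapped, close to the median signal of the arrays.

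Timp2 was at 7.06, 7.49 and 7.06 in MUTYH-null mice and at 6.86, 6.99 and 7.09 in wild-type mice, with a difference of 0.22 log2 (SE 0.14, 95% interval -0.09 to 0.54). Timp3, the inhibitor that stays bound to matrix and also blocks ADAMTS enzymes, was at 7.90, 8.35 and 7.66 in MUTYH-null mice and at 7.95, 7.83 and 7.67 in wild-type mice. In both genes mouse 3007 was the highest of the 6 mice. The Timp3 difference of 0.16 log2 (SE 0.17, 95% interval -0.24 to 0.56) turned to -0.03 without that mouse.

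**Figure D4:**
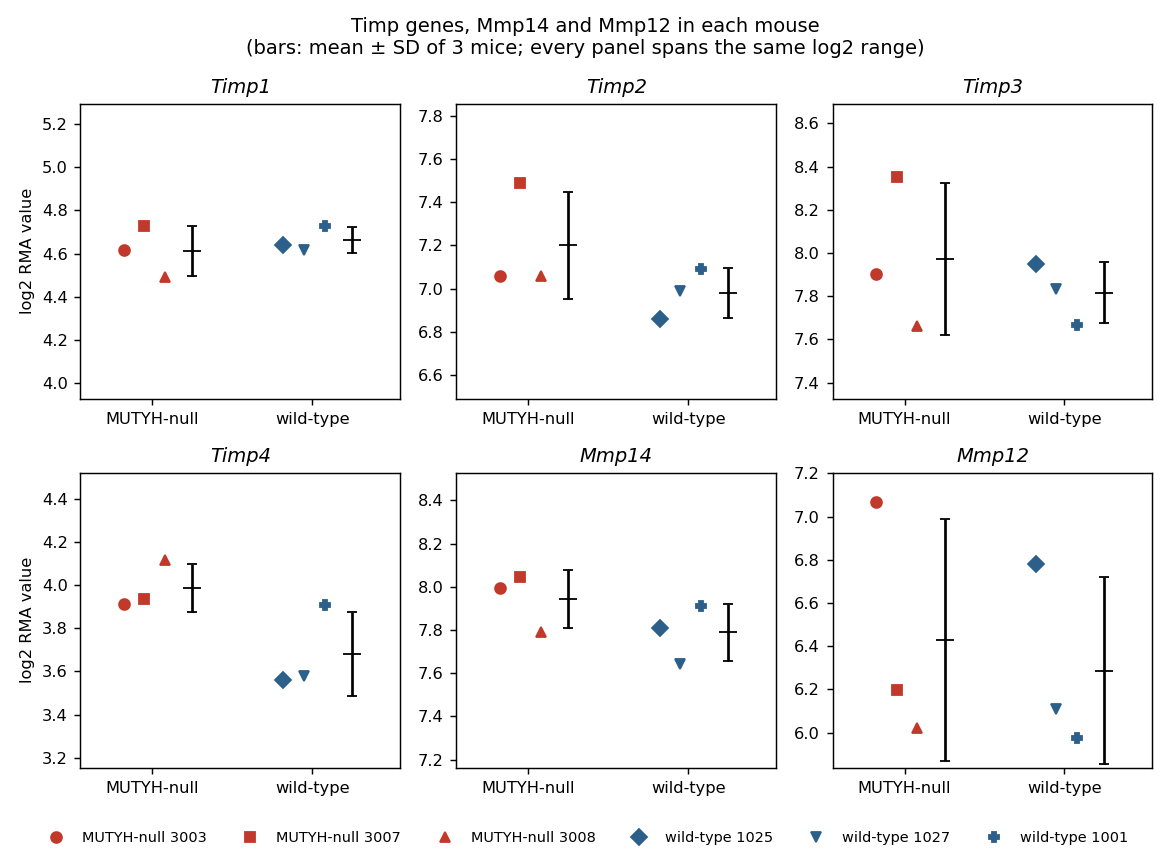
Log2 value (vertical axis) in each mouse for the 4 Timp genes, Mmp14 and Mmp12, MUTYH-null on the left and wild-type on the right of each panel, with a symbol per mouse and bars for mean ± SD of 3 mice. Timp4 alone has separate groups, mouse 3007 is highest for Timp2 and Timp3, and 1 mouse of each genotype stands high for Mmp12.

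Mmp16, a membrane-type MMP with a dim probe set, differed by -0.25 log2 (SE 0.18). The 24 genes that the rule for naming did not single out lay between -0.15 and 0.20 log2, with 15 positive and 9 negative, and 22 of the 24 were smaller than their SE. In all, 40 of the 49 genes neither passed the threshold nor had separate groups.

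Single mice contributed unevenly. Over the 49 genes, mouse 3003 was the highest of 6 in 7 genes, mouse 3007 in 11 and mouse 3008 in 10, against 2 for wild-type mouse 1025, 7 for mouse 1027 and 12 for mouse 1001. The mean level of the 49 genes was 4.83, 4.87 and 4.85 in MUTYH-null mice and 4.81, 4.80 and 4.81 in wild-type mice.

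**Figure D5:**
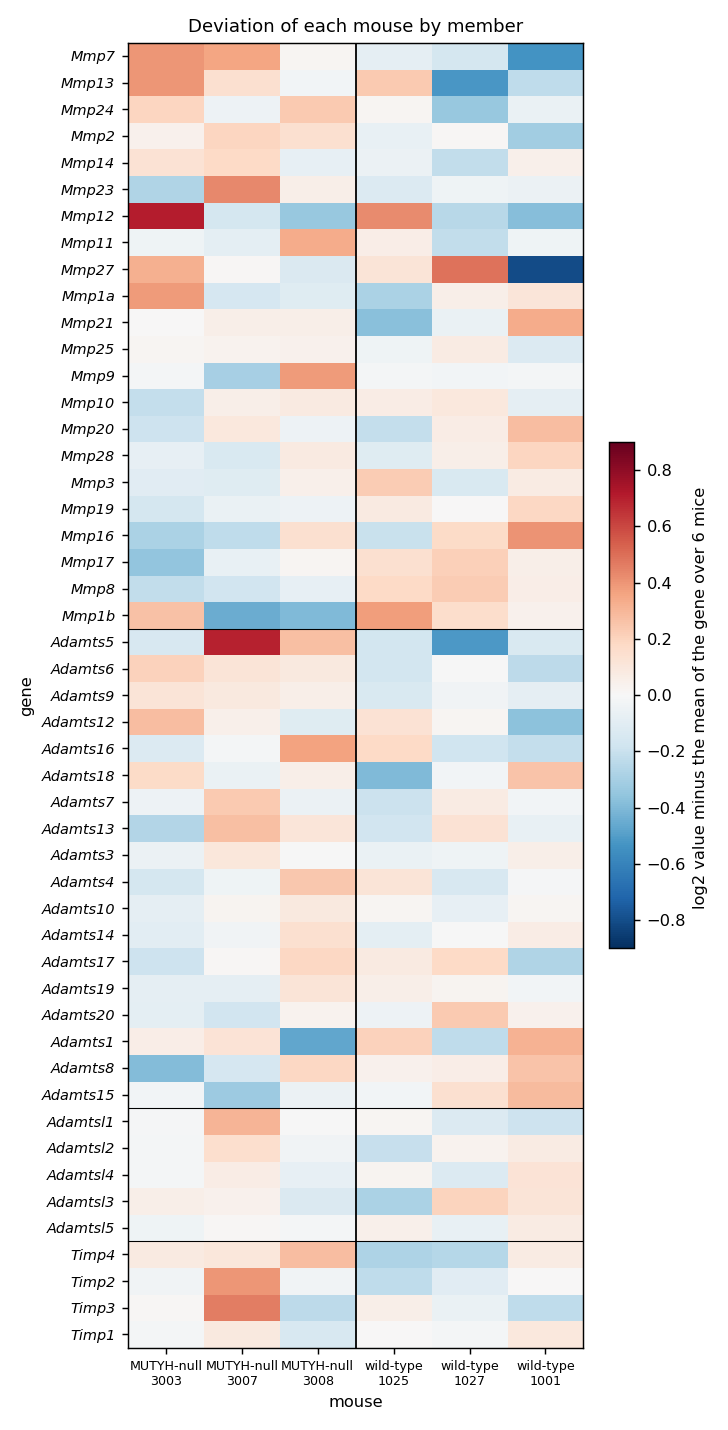
Deviation of each mouse (columns, MUTYH-null on the left and wild-type on the right) from the gene's mean over the 6 mice (color, log2) for each of the 49 genes (rows). High and low values are scattered over the mice of both genotypes, and the strongest deviations, up to 0.80 log2, are in genes with a wide spread within a genotype.

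Stellate cells and fibroblasts are sources of Mmp2, Timp2, Timp3 and several Adamts genes, so their markers were read in the same mice. Of 16 markers, 1 rose (Lum, 6.25%, against 2.29% of all genes) and none fell, and 14 had positive differences (47.5% of all genes). In 12 of the 16 the difference was smaller than its SE, as it was in 14489 of all 22180 genes. The mean level of the 16 markers was 6.89, 7.33 and 6.84 in MUTYH-null mice and 7.07, 6.84 and 6.78 in wild-type mice. Mouse 3007, which was high for Adamts5, Timp2 and Timp3, was also the highest in 13 of 16 markers. The part of these cells in the values of the protease genes was not tested. Of 10 endothelial markers, 1 rose (10%, against 2.29% of all genes) and none fell. Their differences were positive in 5 (47.5% of all genes) and negative in 5, with a median of -0.01 log2. Lyve1 rose, by 0.46 log2. Among the fits that left out 1 mouse, it kept its call only without mouse 3008. Without mouse 3007 its difference was 0.26 log2. Of the markers not called, Cdh5, Stab1 and Clec4g differed by -0.19, 0.17 and 0.12 log2, each by more than its SE. Of 9 T cell and B cell markers, 1 rose (11.1%), Lat, by 0.32 log2.

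Genes that act around these proteases were counted as a matrix protease network of activators, other inhibitors, ADAM proteases and collagen-processing enzymes. Of 43 measured, 3 rose (6.98%, against 2.29% of all genes) and none fell, and the median difference was 0.06 log2. Tll1, a procollagen C-proteinase, rose by 0.33 log2, Ctsk, a collagen-cutting cathepsin, by 0.24 log2 and Fap, a serine protease of activated fibroblasts, by 0.41 log2. All 3 came from dim probe sets and had adjusted p = 0.963 in limma and an exact permutation p of 0.1. Each lost the call in at least 3 of the fits that left out 1 mouse, where the lowest differences were 0.23 for Tll1, 0.16 for Ctsk and 0.22 log2 for Fap. Mouse 3007 was the highest in 19 of 43 genes of this list.

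Substrates of the proteases were counted too. Of 24 measured, 3 rose (12.5%, against 2.29% of all genes) and none fell, and the median difference was -0.00 log2. Lum, for the small proteoglycan lumican, averaged 6.14 ± 0.30 in MUTYH-null and 5.52 ± 0.17 in wild-type livers (SD), without overlap, and passed in 13 of 13 alternative settings. Eln, for elastin, rose by 0.38 log2 and Acan, for aggrecan, by 0.32 log2, both with overlapping groups and an exact permutation p of 0.2. Acan passed in 5 of 12 alternative settings and, of the fits that left out 1 mouse, only without mouse 3003, with a lowest value of 0.23 log2 without mouse 3007. Eln passed in 9 of 13 and lost the call without mouse 3007, 3008, 1027 or 1001, with a lowest value of 0.26 log2 without mouse 1027. Acan, the namesake substrate of Adamts5, was dim in both genotypes.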

How the data were processed

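Deposited log2 values of 6 arrays were used, which the authors had normalized and summarized by RMA. The tools listed in the submitters' processing notes, with no version, are Transcriptome Analysis Console and Affymetrix Expression Console. A human array is named in the methods, but the probe table pairs the probe sets with mouse genes. Of 41345 probe sets, 23521 named 1 gene, 1820 several and 16004 none. Only probe sets naming 1 gene were kept, and the one with the highest mean over the 6 arrays represented each of 22180 genes.

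The difference of MUTYH-null minus wild-type was fitted by limma 3.58.1 (lmFit, eBayes) in R 4.3.3 over all genes, without covariates, with an exact permutation test over mice (two-sided) for single genes. Calls are at an unadjusted p under 0.05. The fit was tested on simulated data. Arrays give no read depth, and 3 mice per group limit the precision.

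Values by mouse were given for genes called or with separate groups, every Timp gene, the 5 with the highest mean, the 3 with the largest spread and the 2 next highest Mmp and Adamts genes, and single values for the 5 largest differences of the rest. Of the other lists, genes at an unadjusted p under 0.05 were named. Any further gene given a value was picked with its values known. The genes, lists and tests were chosen with earlier results of these data known. The alternatives were a filter on dim genes, a further quantile normalization, centered arrays, averaged probe sets, a robust variance trend, array weights, testing every probe set, an adjusted threshold and leaving out each mouse. Promoters came from RefSeq, GRCm38.p6.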

Additional observations from a re-analysis of the deposited data

How the results depend on the processing

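A stricter rule than that for dim genes left out those whose mean over the 6 arrays was below the median signal. Of the 49 genes, 29 remained. Of these, 4 rose (against 2.42% of all genes kept), 1 fell (against 2.34%) and 5 had separate groups (against 9.26%). Their median difference was 0.095 log2. With every probe set tested, 1 gene fell, and Mmp17 and Timp4 lost their calls. At an adjusted p under 0.05, 0 genes were called by limma. Leaving out 1 mouse at a time gave 2 to 3 genes that rose (2 without mouse 3008). It gave 1 to 3 that fell (1 without mouse 3007, 1027 or 1001) and 4 to 6 called in all. No share over all genes stands beside these counts of calls, so nothing is read from them about the 49 genes as a group. Separate groups were found in 9 to 16 genes (16 without mouse 1025, 13 without mouse 3003 or 3008), against 18.0% to 21.5% of all genes. Separation is easier with fewer mice. The median difference in the fits without 1 mouse was 0.0083 (without mouse 1025) to 0.065 log2, and 0.011 without mouse 3007.

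Averaging probe sets turned Mmp11 to -0.10 log2. Among the fits that left out 1 mouse, sign turned within these ranges, none of them past the threshold: Mmp12 from -0.18 to 0.39, Mmp27 from -0.24 to 0.41, Timp3 from -0.035 to 0.31, Timp1 from -0.11 to 0.0093, Adamts10 from -0.018 to 0.066 and Adamtsl2 from -0.016 to 0.12 log2. Calls appeared for Mmp1b without mouse 3003 (-0.61 log2), Mmp24 without mouse 3007 (0.34), Adamts8 without mouse 3008 (-0.39), Mmp2 without mouse 1027 (0.31) and Mmp13, Adamts15 and Mmp16 without mouse 1025 (0.55, -0.35 and -0.41). Over all 38 genes named with a test, 398 of 482 values kept direction and side of the threshold, 64 lost the call, 11 gained it and 9 turned sign; causes were not tested. No paired analysis was made, because the sample labels give no pairing of mice between the genotypes.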
